A study of Mus musculus with 15 samples.

Results

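The endocrine pancreas is a small part of the gland, and its hormones are made in islet cells that lie among the acinar cells of the exocrine tissue. The 9 genes of this compartment examined here, *Ins1*, *Ins2*, *Iapp*, *Gcg*, *Sst*, *Ppy*, *Pyy*, *Chga* and *Chgb*, were chosen by name as the islet hormone and granin genes and were read in all 15 RNA-Seq libraries of the series, labelled pancreas. All 9 were among the 15175 genes listed in the MC count table and among the 49585 genes listed in each of the HC and KMC count tables, and all 9 passed the filter on low counts in all 3 comparisons. *Ins1* and *Ins2* encode the 2 mouse insulins of beta cells, and *Iapp* encodes amylin, which beta cells release with insulin. *Gcg* encodes proglucagon, the source of glucagon in alpha cells. *Sst* encodes somatostatin of delta cells, *Ppy* pancreatic polypeptide of PP cells, which are most frequent in the part of the gland next to the duodenum, and *Pyy* the related peptide YY. *Chga* and *Chgb* encode chromogranin A and B, acidic proteins of the secretory granules of many endocrine cells.

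Pancreatic hormones are made as prohormones, cut by the convertases encoded by *Pcsk1* and *Pcsk2*, and stored in dense granules until release. Insulin lowers and glucagon raises blood glucose, and somatostatin restrains both. Within a library, the ratio of one hormone's counts to another's describes the balance of hormone transcripts without reference to the level of exocrine transcripts.

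The mice were C57BL/6, the labelled tissue was pancreas, and each library was made from RNA pooled from 3 mice. MC was M46 Bac-cre, labelled HPK1-M46 transgenic, at 2 months (3 libraries), against the genotype B control at 2 months (3 libraries). HC was HPK1/B at 4 months (3 libraries), against mice labelled WT at 4 months (2 libraries). KMC was M46/Ras/B at 9 months (2 libraries), against KC, Ras/B, at 15 months (2 libraries), and the study describes the tissue of both as pancreatic ductal adenocarcinoma (PDAC). HPK1 is a serine/threonine kinase encoded in the mouse by *Map4k1* and M46 is its kinase-dead mutant. Bac-cre, the B of the labels, is a tamoxifen-inducible Cre driven by the elastase promoter of acinar cells. The alleles were therefore designed to be switched on in acinar and not in islet cells. The MC, HC and control mice of both experiments had received cerulein, a secretagogue that injures acinar cells, and the series description names no cerulein for KC and KMC. Because each library pooled 3 mice, the spread between libraries is that between pools. The nature of the replicates beyond this was not labelled, so p-values measure only the spread between these libraries.

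Total counts ran from 29766575 to 38745907 per library. Replicates of a group differed by more than sampling noise, and none looked like a repeat deposit of another. *Map4k1* reached 6.79 to 8.31 TMM-scaled CPM (counts relative to a library size that was scaled by the trimmed mean of M values within a table) in MC and 2.34 to 4.14 in its controls, and 5.92 and 11.4 in KMC against 0.544 and 1.55 in KC. In the libraries labelled HC it was 5.05 to 7.92, below the 11.5 and 15.4 of the WT libraries, although the HC label names an HPK1 transgene. Whether transgene reads were counted there was not given in the sources used here. *Ptprc*, a gene of all leukocytes, had the same order, at 35.0 to 62.5 in the libraries labelled HC and 72.5 and 116 in WT, and in the other comparisons at 38.3 to 52.4 in MC against 8.40 to 19.8, and 33.4 and 58.5 in KMC against 3.13 and 10.1. An exchange of labels in the HC experiment could not be checked from the files, and it would turn every direction given for HC against WT. The Y-linked gene *Ddx3y* had 0 counts in both KMC libraries and 157 and 448 counts in the KC libraries, so sex and age differed together with genotype in that comparison. *Ddx3y* was also counted in 1 of the 5 libraries of the HC experiment, the library labelled HC 3.

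Hormone transcripts were a small and variable part of each library. The 7 hormone genes together took 0.0707% to 0.237% of all counts in the MC experiment, 0.116% to 0.176% in KC and KMC, and 0.293% to 0.556% in the libraries of the HC experiment. The smallest member count was 49, for *Ppy* in MC control 3, which alone carries a counting error of 14.3% of its value. In bulk tissue, fewer cells of a type and less RNA per cell cannot be told apart. *Ins1* and *Ins2* share most of their coding sequence, so reads from one could be counted under the other or dropped, and the split between them is uncertain. In the GENCODE annotation of GRCm38, no exon of another gene overlapped an exon of a member; *Slco1a5* lies on the opposite strand at *Iapp*, with 0 bases of shared exon.

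**Figure D1:**
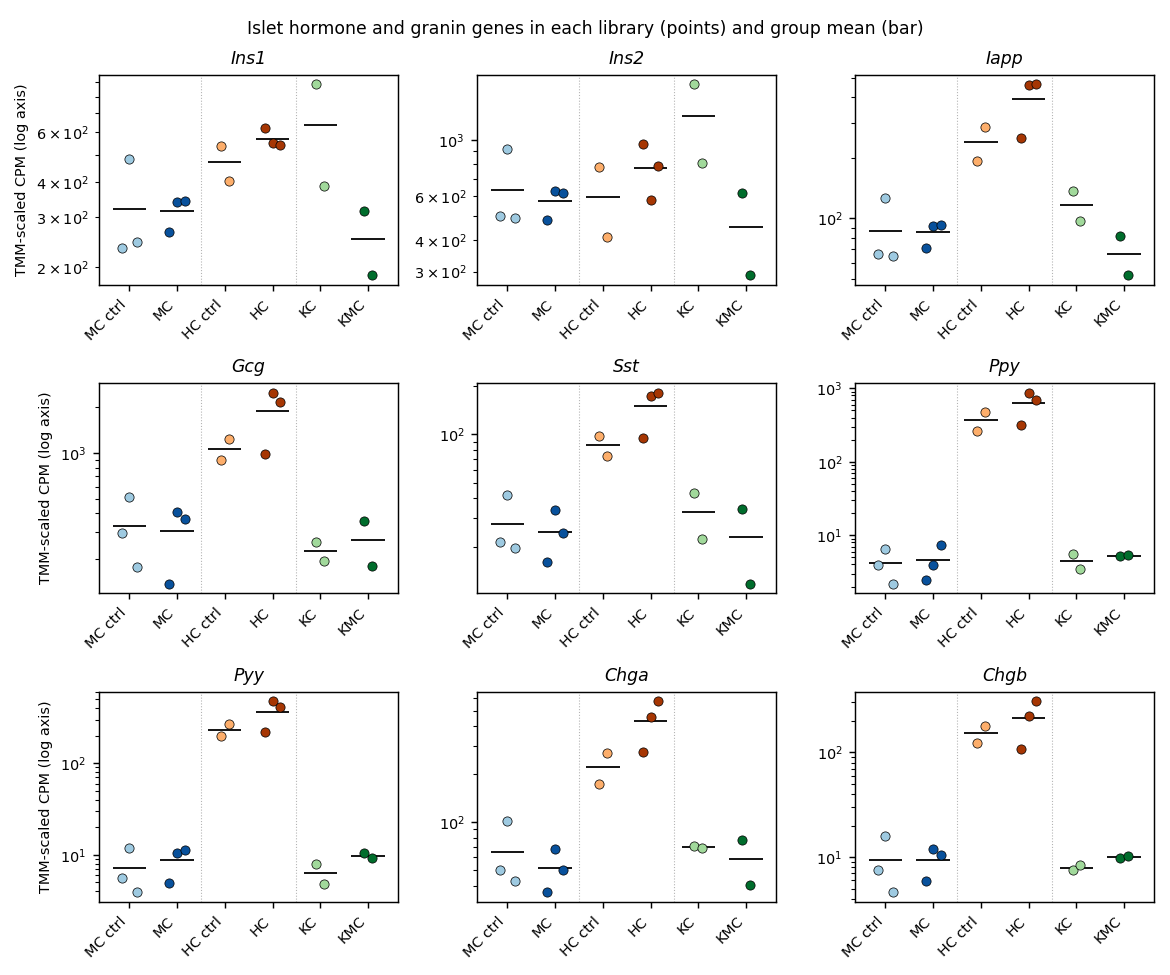
Level of each of the 9 genes in every library, in TMM-scaled CPM on a log axis, with points for libraries, horizontal bars for group means and dotted lines between the 3 count tables. MC control 2 is the highest control library for all 9 genes, and *Ppy*, *Pyy* and *Chgb* stand far higher in the 5 libraries of the HC experiment, whose scaling was separate.

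The first comparison asked how the islet genes stood in the injured pancreas when kinase-dead HPK1 was expressed in acinar cells. None of the 9 genes passed the threshold in MC (edgeR's quasi-likelihood test, with the adjusted p no higher than 0.05 and a log2 fold change of 1 or more in size). In the same test 0% of 13902 genes were called higher and 0% lower, although 2038 had an unadjusted p under 0.05. None of the 9 members had such a p. With DESeq2 on the same counts, 475 genes were called and again no member. The members' log2 fold changes lay between -0.33 for *Chga* and 0.31 for *Pyy*, with 3 above and 6 below 0, and their median was -0.02, as was the median over all genes.

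*Ins2* was at 498, 918 and 487 TMM-scaled CPM in MC controls 1 to 3 and at 480, 624 and 614 in MC 1 to 3. The control range enclosed nearly all of the MC range, and the fold change was 0.90 (95% interval 0.574 to 1.42, adjusted p = 0.803, edgeR). *Ins1* showed the same arrangement, at 233, 484 and 246 in the controls and 267, 341 and 343 in MC. *Gcg* was at 296, 510 and 178 in the controls and 138, 410 and 365 in MC, a fold change of 0.93 with an interval from 0.425 to 2.03 (adjusted p = 0.922, edgeR). For glucagon the interval thus left room for a change of at least 2-fold either way.

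*Sst* was at 21.5, 41.6 and 19.5 in the controls and 16.0, 33.6 and 24.2 in MC, and *Chga* at 50.0, 102 and 42.8 against 36.4, 68.0 and 50.3. *Ppy* and *Pyy* were near the bottom of the measured range, with *Ppy* at 2.20 to 6.49 in the controls and 2.47 to 7.38 in MC, and *Pyy* at 3.91 to 11.9 and 4.94 to 11.2. *Iapp* (65.1 to 127 and 71.2 to 92.9) and *Chgb* (4.63 to 16.0 and 5.92 to 12.1) overlapped as well. Among all genes, 10.9% had every MC library above every control and 9.89% every MC library below; of the members, 0 did either.

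Single pools carried much of the spread. MC control 2 had the highest value of the 3 controls for 9 of 9 members, MC control 3 the lowest for 8 of 9, and MC 1 the lowest of the MC libraries for 9 of 9. Without MC control 2, all 9 members were higher in MC, by 0.15 to 0.89 on the log2 scale with a median of 0.37, and 0 of them were called, where 718 of 14129 genes were called in that fit, 678 of them higher. Without MC 1, 7 of 9 were higher in MC, with a median of 0.11, and without MC control 3 or MC 3 in turn only 1 of 9 was higher. *Pyy* alone had the same sign, higher in MC, whichever pool was left out.

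The balance of hormones was nearly level in MC. The counts of *Gcg*, *Sst*, *Ppy* and *Pyy* together, divided by those of *Ins1*, *Ins2* and *Iapp*, gave 0.410, 0.373 and 0.255 in the controls and 0.197, 0.433 and 0.389 in MC. The mean ratio in MC was 0.948 of that in the controls on the log scale (exact two-sided permutation test over libraries, p = 0.900, with 0.100 the smallest p that 3 against 3 allows). MC 1, with the lowest *Gcg* of the experiment, had the lowest ratio.

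Of 11 ratios computed in each comparison, 3 did not overlap between MC and its controls. *Iapp* to insulin (*Ins1* and *Ins2* summed) was the tightest of all, at 0.0908, 0.0903 and 0.0888 in the controls and 0.0953, 0.0952 and 0.0971 in MC, a 1.07-fold difference. *Ins1* to *Ins2* was 0.469, 0.527 and 0.505 against 0.556, 0.546 and 0.559, a 1.11-fold difference. *Chgb* to *Chga* was 0.151, 0.156 and 0.108 against 0.162, 0.177 and 0.207, a 1.33-fold difference. Each reached the smallest p possible, 0.100 in the exact permutation test, and 0.367 after adjustment over the 11 ratios, so none of them passed a threshold of 0.05. Among the controls, where *Ins1* varied 2.07-fold and *Ins2* 1.88-fold, *Iapp* to insulin stayed between 0.0888 and 0.0908.

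None of the other islet genes listed was called in MC. Of 20 genes of prohormone processing and granules, 0 were called, 16 were lower and 4 higher, with a median log2 fold change of -0.18; *Ptprn2*, a granule membrane protein, was at 119 CPM in MC and 154 in the controls, and *Cpe*, carboxypeptidase E, at 82.7 and 108. Of 9 beta cell markers 8 were lower and 0 were called, and *Glp1r*, the GLP-1 receptor, had a log2 fold change of -0.54 (SE 0.19, adjusted p = 0.283, edgeR). Alpha cell markers (4 tested, median 0.20) and delta cell markers (3 tested, median 0.69) had 0 called. Endocrine transcription factors had a median of 0.05 over 15 tested, with 0 called.

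Lists for other cells had wider changes in the same libraries. Of 10 leukocyte genes tested all 10 were higher, with a median of 1.51 and a summed level of 202 to 285 CPM in MC and 71.9 to 212 in the controls, and 8 of 8 genes of stroma and endothelium were higher with a median of 0.62. Of 21 acinar genes 20 were lower, with a median of -0.64. None of these was called, and their part in the hormone values was not tested. Scaled by library size alone, the median of all genes in MC moved to 0.29 and that of the members to 0.23, with 8 members higher and 1 lower, so the signs of these small changes are those relative to other genes.

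**Figure D2:**
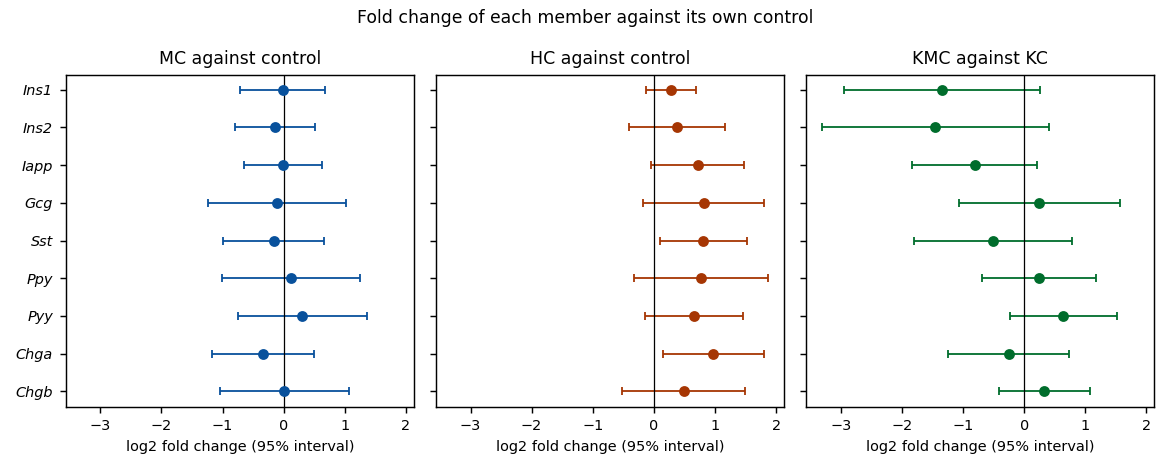
Log2 fold change of each gene in MC, in the libraries labelled HC and in KMC against its own control, with 95% intervals from edgeR's quasi-likelihood fit and a vertical line at 0. All MC intervals cross 0, the 9 points of the HC comparison lie to the right of 0, and *Ins1*, *Ins2* and *Iapp* lie furthest to the left in KMC against KC.

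The second comparison set the libraries labelled HC against WT, both after cerulein. All 9 members had a higher fitted level in the libraries labelled HC, with log2 fold changes from 0.28 for *Ins1* to 0.97 for *Chga* and a median of 0.71, where the median of all 18407 genes tested was 0.00. None passed the threshold with edgeR, against 0.467% of all genes called higher and 0.0978% called lower. An unadjusted p under 0.05 was reached by 2 of the 9, *Chga* and *Sst*, and by 2919 genes in all.

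*Chga* was at 172 and 270 TMM-scaled CPM in the WT libraries and at 274, 453 and 573 in the libraries labelled HC. The 3 lay above both WT libraries, the lowest by little, and the fold change was 1.96 (95% interval 1.11 to 3.48, adjusted p = 0.251, edgeR). DESeq2 gave *Chga* an adjusted p of 0.0469 with a log2 fold change of 0.96, short of the fold threshold. *Ins1*, at 537 and 402 against 618, 550 and 539, was the other member whose groups did not overlap, and its fold change was only 1.21. Against these 2 of 9 members, 17.5% of all genes lay higher in every library labelled HC than in both WT libraries, and 16.1% lay lower, as 0 members did.

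*Gcg* was at 895 and 1238 in WT and at 977, 2495 and 2149 in the libraries labelled HC, a fold change of 1.76 with an interval from 0.884 to 3.49. *Sst* was at 97.0 and 73.6 in WT and at 94.3, 172 and 182. *Ppy* was at 260 and 472 against 317, 876 and 686, and *Pyy* at 198 and 269 against 219, 478 and 408. In each of these 4 the library labelled HC 1 lay inside the WT range and the other two above it.

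The library labelled HC 1 was the lowest of its group for 7 of 9 members and the highest for the remaining 2, *Ins1* and *Ins2*. *Ins2* was at 777 and 412 in WT and at 961, 579 and 789. *Iapp* was at 193 and 287 against 250, 463 and 467, and *Chgb* at 123 and 181 against 108, 224 and 309. Without the library labelled HC 1, *Sst* passed the threshold with a log2 fold change of 1.05 (adjusted p = 0.0305, edgeR), the only member to do so, where 379 of 18143 genes were called in that fit. The median of the members was then 0.95. *Ins2* changed sign, to -0.0026, without the second WT library.

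The hormone balance of the HC experiment varied widely inside both groups. *Gcg* to insulin was 0.681 and 1.52 in WT and 0.618, 2.21 and 1.62 in the libraries labelled HC. The first library of each group had more insulin than *Gcg* counts, and the others had more *Gcg* counts. The ratio of *Gcg*, *Sst*, *Ppy* and *Pyy* to *Ins1*, *Ins2* and *Iapp* was 0.963 and 1.86 against 0.878, 2.53 and 1.91, a mean 1.21-fold difference (exact permutation test, p = 0.800; 0.200 is the smallest p that 3 against 2 allows). *Ins1* to *Ins2* was 0.691 and 0.975 against 0.643, 0.951 and 0.682.

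Of the 11 ratios, only *Chgb* to *Chga* separated the groups, at 0.716 and 0.670 in WT and 0.396, 0.494 and 0.539 in the libraries labelled HC (exact permutation test, p = 0.200, the smallest possible, and 0.978 after adjustment). In MC this ratio lay on the other side of its controls. *Ppy* to *Gcg* was almost constant, at 0.291 and 0.381 in WT and 0.325, 0.351 and 0.319 in the libraries labelled HC, while insulin varied against both.

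Genes of hormone processing stood higher beside the hormones. Of 20 genes of prohormone processing and granules 19 had a higher fitted level, with a median log2 fold change of 0.64, and 0 were called. An unadjusted p under 0.05 (edgeR) was reached by 13 of the 20 and by 15.9% of all genes tested. In 10 of the 20 every library labelled HC lay above both WT libraries, an order shown by 17.5% of all genes. *Scg2*, secretogranin II, was at 163 CPM in the libraries labelled HC and 103 in WT (log2 fold change 0.67, SE 0.25, adjusted p = 0.273, edgeR), and *Pam*, the amidating enzyme, at 277 and 246. Among 9 beta cell markers, *Glp1r* was called, at 215 and 86.7 CPM (log2 fold change 1.31, SE 0.12, adjusted p = 0.0336, edgeR). *Glp1r* was the only gene of any list called in any of the 3 comparisons. *Trpm5*, a cation channel, was at 127 and 78.3 without passing. Of the 9 beta cell markers 8 had a higher fitted level, with a median log2 fold change of 0.51. Of 5 alpha cell markers 3 were higher and 2 lower, with a median of 0.40 and 0 called. The alpha cell marker *Slc7a2* was at 86.0 CPM against 114 in WT, lower where *Gcg* was higher. Of 4 delta cell markers 2 were higher and 2 lower, with a median of 0.16 and 0 called. The summed beta cell markers, the 3 beta cell members aside, ran from 363 to 544 CPM against 211 and 253 in WT. This sum was led by *Glp1r* and *Trpm5*. The same 9 genes summed to 40.2 to 54.1 CPM in MC, 46.2 to 68.8 in its controls, 27.1 and 58.0 in KMC, and 60.8 and 63.2 in KC. The alpha cell markers summed to 131 to 172 against 201 and 210, led by *Slc7a2*, and the delta cell markers to 85.2 to 92.7 against 95.7 and 98.3. Such sums follow their most abundant genes more than the list as a whole.

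Markers of stomach moved with the same groups. The summed stomach list was 9392 to 9519 CPM in the libraries labelled HC and 2653 and 4294 in WT; *Tff2* was at 2717 and 1294 and *Gkn1*, a gastrokine of the gastric surface epithelium, at 2704 and 501 (log2 fold change 2.43, SE 0.36, adjusted p = 0.0522, edgeR). The parietal cell gene *Atp4b* had at most 3 counts in any of the 5 libraries. The summed intestinal list was 236 to 260 CPM against 126 and 159, almost all of it *Vil1*, and *Apoa4* had 0 counts throughout. Enteroendocrine genes summed to 31.6 to 42.6 CPM against 25.3 and 29.8, with *Ghrl*, ghrelin, at 15.8 and 10.7, *Tph1* at 11.6 and 6.40, and *Gast*, gastrin, at 0.720 and 0.770. The adrenal and neuronal list stayed at 4.93 to 5.24 CPM against 5.17 and 5.19, and *Pnmt* had 0 counts. The leukocyte list was lower, at 150 to 202 against 249 and 396, and the acinar list had a median of -0.09. The part of these tissues in the hormone values was not tested.

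A fit over both cerulein experiments compared the MC effect with the HC effect, each against its own control. All 9 differences were negative with the labels as given. They rest on the direction of HC against WT, and the labels of that experiment could not be checked. The largest was for *Chga* at -1.31 on the log2 scale (95% interval -2.55 to -0.07, unadjusted p = 0.0407, adjusted p = 0.218, edgeR) and the smallest for *Ins1* at -0.30. None was called, against 1.77% of 14884 genes called with a higher and 0.41% with a lower MC effect. Without MC control 2 the differences for *Ins1*, *Pyy* and *Chgb* turned positive, at 0.11, 0.22 and 0.13. Age and library kit differed between the experiments along with the transgene.

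The third comparison set KMC against KC, Ras/B mice with and without M46, in tissue labelled pancreas that the study describes as PDAC. *Ins2* was at 1666 and 811 TMM-scaled CPM in KC and at 614 and 291 in KMC. Both KMC libraries lay below both KC libraries, and the fold change was 0.37 (95% interval 0.101 to 1.32, adjusted p = 0.276, edgeR). *Ins1*, at 887 and 388 against 316 and 188, and *Iapp*, at 137 and 97.3 against 81.3 and 52.2, had the same order of groups, with log2 fold changes of -1.34 and -0.81. Without KC 1 the log2 fold changes of *Ins1*, *Ins2* and *Iapp* were -0.63, -0.85 and -0.55, and without KMC 1 they were -1.76, -2.09 and -1.17. The 3 beta cell transcripts were those with every KMC library lower, where 30.9% of all genes had this order.

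The other hormones did not follow. *Gcg* was at 257 and 193 in KC and at 356 and 179 in KMC (log2 fold change 0.25, SE 0.56). *Ppy* was at 5.51 and 3.45 against 5.23 and 5.33, and *Sst* at 43.0 and 22.4 against 34.1 and 11.8. *Pyy*, at 7.83 and 4.80 against 10.4 and 9.20, and *Chgb*, at 7.49 and 8.32 against 9.80 and 10.1, were the 2 members with both KMC libraries higher, an order shown by 34.4% of all genes. *Chga* was at 71.3 and 69.2 against 77.5 and 40.4.

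None of the 9 was called with edgeR, where 0.00636% of 15733 genes were called higher and 0.0127% lower, and 0 members had an unadjusted p under 0.05, while 4027 genes in all did. DESeq2 called 2130 genes, among them *Ins2*, with a log2 fold change of -1.43 (adjusted p = 0.0357). The scaling changed the direction of 4 members in this comparison, *Ins1*, *Iapp*, *Sst* and *Chga*. Scaled by library size alone, the median of all genes in KMC was 1.47 and 8 of 9 members had a positive log2 fold change, with *Ins2* at -0.04, *Ins1* at 0.14 and *Pyy* at 2.14, the last called (adjusted p = 0.0286, edgeR), as were 4715 of 15733 genes under that scaling, 4695 of them higher. With the library size taken without acinar genes, *Ins1*, *Ins2* and *Iapp* were at -0.62, -0.76 and -0.13. Under library size alone all 3 of these lay below the median of all genes, 1.47.

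The balance within libraries does not depend on the scaling, and of the 3 comparisons *Gcg* to insulin differed most here. *Gcg* to insulin was 0.101 and 0.161 in KC and 0.383 and 0.374 in KMC, a 2.97-fold difference. *Gcg*, *Sst*, *Ppy* and *Pyy* to *Ins1*, *Ins2* and *Iapp* was 0.116 and 0.173 in KC and 0.402 and 0.386 in KMC, 2.78-fold higher. The KMC libraries were close together and both lay more than 2 times above the higher KC library. The exact two-sided permutation test gave p = 0.333, which is the smallest p that 2 against 2 allows, so the design could not reach 0.05.

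The other hormones and *Chga* each stood higher against insulin in KMC. In the summed ratio they weighed unequally. *Gcg* was 8.55% and 12.7% of hormone counts in KC and 24.3% and 25.2% in KMC, and *Ppy* and *Pyy* were each at most 1.25%. *Pyy* to insulin was 0.00307 and 0.00400 in KC and 0.0112 and 0.0192 in KMC, 4.18-fold higher. *Ppy* to insulin was 0.00216 and 0.00287 against 0.00563 and 0.0111, 3.18-fold higher. *Chga* to insulin was 0.0279 and 0.0577 against 0.0833 and 0.0843, 2.09-fold higher. *Sst* to insulin was 0.0168 and 0.0187 against 0.0367 and 0.0246, 1.70-fold higher, and *Iapp* to insulin 0.0537 and 0.0811 against 0.0874 and 0.109, 1.48-fold higher. In 9 of the 11 ratios both KMC libraries lay above both KC libraries, each with the same exact permutation p of 0.333 and 0.407 after adjustment. The 2 ratios that overlapped were *Ins1* to *Ins2*, at 0.532 and 0.479 against 0.514 and 0.647, and *Ppy* to *Gcg*, at 0.0215 and 0.0178 against 0.0147 and 0.0298. Most of these ratios share insulin as their base and are not separate observations.

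Set beside the MC experiment, the KMC values of *Gcg* to insulin were inside the range of the 6 libraries of MC and its controls, 0.185 to 0.425, and the KC values below it. The KC mice were the oldest of the series, at 15 months, and no library gives KC at 9 months, so genotype, age and sex cannot be told apart here.

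The markers of islet cells in KMC followed the hormones in part. All 9 beta cell markers had a lower fitted level, with a median log2 fold change of -0.62, and 0 were called. Of the 9, 5 had both KMC libraries below both KC libraries, an order shown by 30.9% of all genes. *G6pc2*, the islet glucose-6-phosphatase, was at 12.5 CPM in KMC and 19.2 in KC, and *Pdx1*, the beta cell transcription factor, at 6.78 and 10.9. Of 5 alpha cell markers 4 were higher, with a median of 0.51 and 0 called, and *Slc7a2* was at 23.5 and 22.5 CPM. The leukocyte list was higher in the same libraries, at 118 and 210 against 24.0 and 35.6 CPM. Of 3 delta cell markers tested, *Hhex* was at 14.9 and 6.32 CPM and *Rbp4* at 3.52 and 4.87. Prohormone processing and granule genes had a median of -0.26 over 19 tested, 14 of them lower, with *Ptprn2* at 48.9 and 126 and *Pam* at 47.5 and 44.4.

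Acinar genes were lower in KMC in all 22 cases, with a median of -1.99, and their sum was 57.2% and 65.0% of all counts in KC and 23.3% and 45.6% in KMC. Stroma and endothelium genes were higher in 8 of 8, with a median of 1.89. Their sum was 0.0177% and 0.0588% of all counts in KC and 0.231% and 1.29% in KMC. In the MC controls, 21 acinar genes took 38.5% to 51.7% of counts and the 8 of stroma and endothelium 0.0641% to 0.260%. How much of each KC and KMC library came from tumour was not tested. Stomach genes summed to 311 and 744 CPM in KMC and 1370 and 4859 in KC, mostly *Tff2*. Enteroendocrine genes stayed at 0.909 and 1.29 against 0.545 and 0.929 CPM, with *Gast* and *Insl5* at 0 counts in all 4 libraries. The part of these cells in the balance of hormones was not tested.

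**Figure D3:**
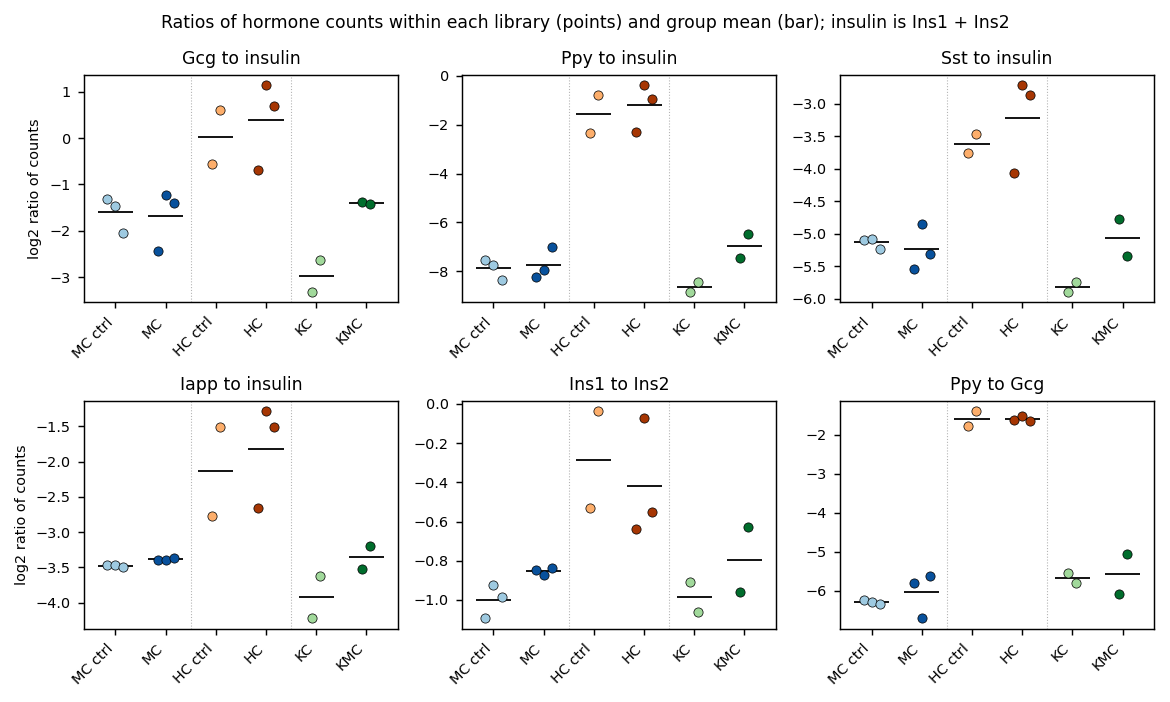
Log2 ratio of counts within each library for 6 pairs of hormones, with points for libraries, horizontal bars for group means, insulin as the sum of *Ins1* and *Ins2*, and dotted lines between the 3 count tables. KMC lies above KC for *Gcg*, *Ppy*, *Sst* and *Iapp* to insulin, the 3 MC values of *Iapp* to insulin lie just above their controls, and the 5 libraries of the HC experiment stand apart in *Ppy* to insulin and *Ppy* to *Gcg*.

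The hormone balance also differed between the HC experiment, controls included, and the other 10 libraries. Per kilobase of exon, *Ins2* led in all 10 libraries of MC, KC, KMC and the MC controls, and the order below it was the same in each: *Ins1*, *Gcg*, *Iapp*, *Sst*, *Chga*, *Pyy*, *Ppy* and *Chgb*. In the 5 libraries of the HC experiment the first place went to *Ins2*, *Ppy* and *Gcg* in the libraries labelled HC 1, HC 2 and HC 3, and to *Gcg* and *Ppy* in the 2 WT libraries. Places 7 to 9 were *Sst*, *Chga* and *Chgb* in all 5. Since levels per kilobase depend on the exon model, neighbouring genes such as *Ins1* and *Ins2*, whose order turned in 2 libraries of the HC experiment, are not firmly ranked.

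*Ppy* and *Pyy* had larger shares in the HC experiment and the insulin genes smaller ones. The *Ppy* share of hormone counts per kilobase was 18.2% and 28.7% in WT and 19.0%, 29.9% and 25.9% in the libraries labelled HC, and 0.441% to 1.74% in the other 10. *Pyy* had 10.4% to 13.0% in the HC experiment and 0.496% to 2.38% elsewhere. *Ins2* had 7.54% to 22.0% in the HC experiment and 36.1% to 50.8% elsewhere. *Gcg* had 19.6% to 28.5% there and 6.88% to 22.2% elsewhere. *Sst* and *Iapp* shares were close in both, at 3.11% to 4.75% and 6.91% to 9.04% in the HC experiment and 2.38% to 4.07% and 5.63% to 8.94% elsewhere. The unscaled share of a hormone in a library's hormone counts was known to within 0.656 percentage points at the widest 95% Wilson interval, which covers counting error only.

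As ratios of counts, *Ppy* to insulin was 0.198 to 0.775 in the HC experiment and 0.00216 to 0.0111 elsewhere, so that the lowest of the 5 libraries was 17.8 times the highest of the other 10. *Pyy* to insulin was 7.21 times and *Ppy* to *Gcg* 9.76 times as high by the same measure, but *Gcg* to insulin only 1.45 times and the non-beta to beta hormones together 2.03 times. *Pyy* to *Ppy*, which does not involve insulin, was 0.546 to 0.762 in the HC experiment and 1.39 to 2.64 elsewhere. *Chgb* to *Chga* was 0.396 to 0.716 and 0.105 to 0.251. *Ins1* to *Ins2* was the ratio that overlapped, at 0.643 to 0.975 and 0.469 to 0.647.

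Age and experiment differ here, so these are values side by side with no test. The KAPA stranded kit was used for the HC experiment and for KC and KMC, and a standard Illumina protocol for the MC experiment; the part of the kit was not tested. The labels do not say which part of the gland was taken. The acinar list took 5.31% to 8.28% of all counts in the libraries labelled HC and 6.36% and 8.12% in WT. In every library of the other experiments it took at least 23.3%. The summed stomach list took 0.274% to 0.942% of all counts in the HC experiment and at most 0.236% elsewhere. In TMM-scaled CPM, scaled separately in each experiment, 1 KC library reached 4859, above the 2653 and 4294 of WT. *Gkn1* had 12566 counts or more in each of the 5 libraries of the HC experiment and at most 215 in KC and KMC, and was not listed in the MC table. *Gast* had 14 to 34 counts in the 5 libraries, *Sct*, secretin, 16 to 59 and *Gip*, the incretin of the upper gut, 12 to 124, against *Ppy* counts of 9073 to 27556. The part of acinar, gastric or intestinal RNA in this difference was not tested.

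**Figure D4:**
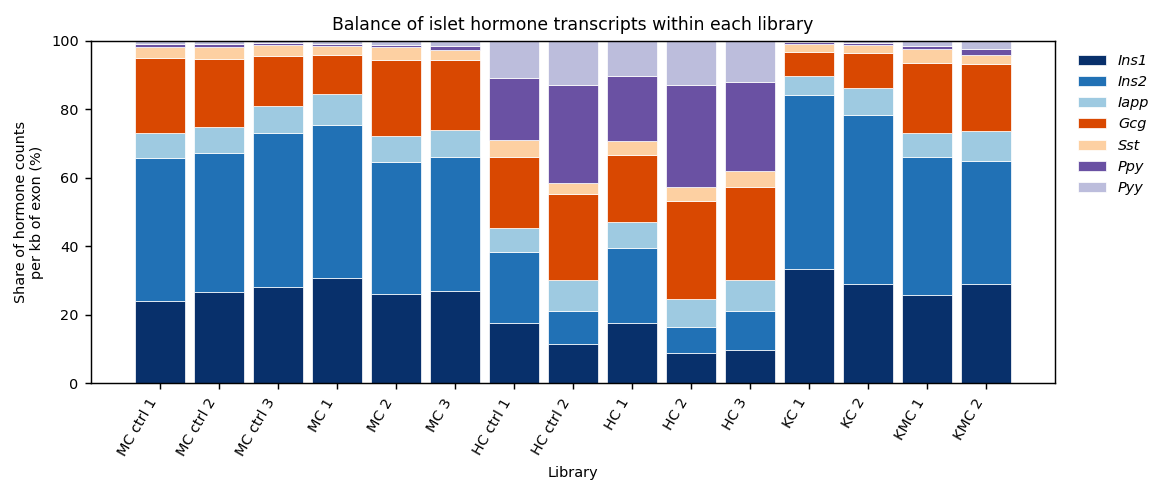
Share of each of the 7 hormone genes in the summed hormone counts per kilobase of exon, in percent, as stacked bars for the 15 libraries. Insulin genes fill most of each bar in the MC, KC and KMC libraries, KC has the smallest *Gcg* share, and *Ppy* takes 18.2% to 29.9% in the 5 libraries of the HC experiment.

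*Ppy* and *Pyy* are neighbours on the minus strand of chromosome 11, at 102099930 to 102101319 and 102106676 to 102107832 in GRCm38, and *Ins1* is on chromosome 19 at 52264297 to 52265476. *Ins2* is on chromosome 7, *Gcg* and *Chgb* on chromosome 2, *Iapp* on chromosome 6, *Chga* on chromosome 12 and *Sst* on chromosome 16. The 250 bases before the RefSeq start site are shown for the genes between which the balance moved most, insulin, glucagon and the pair on chromosome 11, with matches to 4 searched motifs in capitals (RefSeq, GRCm38.p6, gene strand, 5′ to 3′).
Ins1, chr19:52264047-52264296, plus strand: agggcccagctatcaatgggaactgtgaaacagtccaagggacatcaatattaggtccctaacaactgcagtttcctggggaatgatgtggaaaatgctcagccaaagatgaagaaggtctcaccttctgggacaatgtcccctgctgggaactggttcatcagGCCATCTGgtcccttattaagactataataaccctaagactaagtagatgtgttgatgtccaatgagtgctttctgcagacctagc
Gcg, chr2:62483654-62483903, minus strand: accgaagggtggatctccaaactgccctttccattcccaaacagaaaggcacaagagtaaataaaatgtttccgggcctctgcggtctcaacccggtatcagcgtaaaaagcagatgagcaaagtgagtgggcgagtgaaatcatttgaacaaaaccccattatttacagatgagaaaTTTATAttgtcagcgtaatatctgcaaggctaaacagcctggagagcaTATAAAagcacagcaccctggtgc
Ppy, chr11:102101320-102101569, minus strand: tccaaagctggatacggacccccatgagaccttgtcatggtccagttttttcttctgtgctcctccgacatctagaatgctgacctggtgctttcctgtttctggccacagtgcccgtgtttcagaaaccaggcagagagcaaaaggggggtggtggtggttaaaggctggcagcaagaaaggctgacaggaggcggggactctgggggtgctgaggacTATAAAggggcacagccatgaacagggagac
Pyy, chr11:102107833-102108082, minus strand: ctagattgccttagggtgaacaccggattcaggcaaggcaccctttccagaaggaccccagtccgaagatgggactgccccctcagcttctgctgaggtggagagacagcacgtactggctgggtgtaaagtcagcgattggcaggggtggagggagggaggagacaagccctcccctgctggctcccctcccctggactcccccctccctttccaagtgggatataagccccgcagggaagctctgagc
The capitals mark GCCATCTG in *Ins1*, an E-box known from insulin promoters, whose first base is 86 bases before the start, and TATAAA in *Gcg* (72, on the opposite strand, and 24 bases before) and in *Ppy* (31 bases before). TATAAA on either strand was found in 12.4% of 32851 promoters of the same length and GCCATCTG in 1.11%. The cyclic AMP response element TGACGTCA, found in 1.55% of promoters, lay 48 bases before the start of *Sst* and 72 before that of *Chgb*. TAATTA, a homeodomain core found in 4.84%, was in none of the windows searched, and *Pyy* held none of the 4 motifs. The windows were those of 8 of the 9 members, *Ins2* not among them. A match is a run of letters and no evidence of binding.

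Across the 15 libraries, after the mean of each of the 6 groups was removed from log2(CPM + 1), the members varied in part together. *Ins2* was most like *Ins1* (Pearson r = 0.918), then *Sst* (0.687), and less like *Iapp* (0.338), *Gcg* (0.346) and *Chga* (0.345). Its coefficients were lower still with *Pyy* (0.298), *Chgb* (0.115) and *Ppy* (0.048). *Gcg* was like *Pyy* (0.935), *Chga* (0.899), *Iapp* (0.875), *Chgb* (0.848), *Sst* (0.840) and *Ppy* (0.836), and less like *Ins1* (0.513). Over all 15 libraries the amylin gene thus had higher coefficients with *Gcg* and *Chga* (0.921) than with *Ins2*. This did not hold alike in every group. In the WT libraries *Ins2* was at 777 and 412 TMM-scaled CPM where *Iapp* was at 193 and 287. The library labelled HC 1 had the highest *Ins2* and the lowest *Iapp* of its group. In KC and in KMC the library with more *Ins2* also had more *Iapp*, and *Iapp* to insulin was steady in the MC experiment.

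Of 13381 genes compared, those most like *Gcg* outside the members were *Resp18* (0.964), *Scg5* (0.960), *Tmem27* (0.957), *Pcsk2* (0.954) and *Tmem28* (0.950). *Resp18* and *Scg5* encode proteins of neuroendocrine granules, and *Pcsk2* the convertase that cuts proglucagon to glucagon. Those most like *Chga* were *2810459M11Rik* (0.965), *Lrrc10b* (0.961), *Tmem27* (0.956), *Gjd2* (0.954), which encodes the beta cell gap junction protein, and *Pcsk2* (0.950). Those most like *Ins2* were *Zfhx2* (0.894), *Irf9* (0.890), *Ppp1r1a* (0.871), *Slc5a1* (0.869) and *Tbc1d25* (0.843). The libraries share depth and whole-tissue composition, and these coefficients are descriptions over 15 points. With the group means removed, these points are not independent, and in a group of 2 libraries the deviations are equal and opposite.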

How the data were processed

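RNA pooled from 3 mouse pancreata per library was sequenced. The authors aligned reads to GRCm38 and deposited raw counts per GENCODE gene in 3 tables, 1 per experiment; the submitters' processing notes name bcl2fastq 2.17.14, STAR 2.6.1a, HTSeq 0.6.1, DESeq2 and mm10. A table of the authors' own fold changes and p-values was not used. Of 49585 identifiers, 49326 matched a symbol. Each table was tested separately with edgeR 4.0.16 (filterByExpr, TMM, quasi-likelihood test, Benjamini-Hochberg over all genes tested) in R 4.3.3; DESeq2 1.42.0 was an alternative. A call needed an adjusted p no higher than 0.05 and a log2 fold change of 1 or more in size. Hormone ratios were taken from counts within a library and compared by exact two-sided permutation tests. Scripts were tested on simulated data. The 9 members were named everywhere; from each gene list the called genes (at most 3) and the 2 of highest mean CPM could be named, and the 5 genes most correlated with *Ins2*, *Gcg* and *Chga*; other genes were named after their values were seen. The members and lists were chosen with earlier results of these data known. Depth, 29766575 to 38745907 counts per library, limits *Ppy* and *Pyy* most outside the HC experiment. Alternatives changed the scaling, filter, tool, replicate block and libraries included.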

Additional observations from a re-analysis of the deposited data

How the results depend on the processing

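With edgeR, the count of members called stayed at 0 in all 3 comparisons with DESeq2's size factors, with no filter and with library size without acinar genes. It was 1 for KMC against KC with DESeq2 (*Ins2*) and 1 with library size alone (*Pyy*), and ranged from 0 to 1 for HC over the removal of single libraries. The causes were not tested.

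With library size alone the log2 fold changes of *Ins1*, *Ins2*, *Iapp*, *Gcg* and *Sst* in MC turned to 0.23, 0.11, 0.25, 0.17 and 0.11, and those of *Ins1*, *Iapp*, *Sst* and *Chga* in KMC to 0.14, 0.60, 0.84 and 1.07. With library size without acinar genes *Ins1* and *Iapp* in MC were 0.056 and 0.064, and *Sst* and *Chga* in KMC 0.16 and 0.39. A replicate block, fitted as if same-numbered libraries were paired although only their numbers are shared, gave 0 members called in each comparison; *Ins1* and *Iapp* in MC were 0.057 and 0.049, and the calls over all genes were 0, 339 and 2464 in MC, HC and KMC, against 0, 104 and 3 without it. In MC the deviations of same-numbered libraries correlated at 0.077, 0.32 and -0.37, and not every library correlated best with its own number.

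Leaving out each library in turn, the log2 fold changes in MC ranged from -0.20 to 0.40 for *Ins1*, -0.29 to 0.21 for *Ins2*, -0.17 to 0.37 for *Iapp*, -0.39 to 0.36 for *Gcg*, -0.46 to 0.26 for *Sst*, -0.40 to 0.57 for *Ppy*, -0.58 to 0.15 for *Chga* and -0.29 to 0.63 for *Chgb*. *Ins2* in HC ranged from -0.0026 to 0.91. In KMC the ranges were -1.47 to 0.088 for *Sst*, -0.066 to 0.60 for *Ppy*, -0.34 to 0.68 for *Gcg* and -0.81 to 0.16 for *Chga*, while *Ins1* ranged from -1.82 to -0.63, *Ins2* from -2.09 to -0.85 and *Iapp* from -1.17 to -0.51. The difference of effects ranged from -0.52 to 0.11 for *Ins1*, -0.64 to 0.22 for *Pyy* and -0.81 to 0.13 for *Chgb*. The log2 balance of non-beta to beta hormones ranged from -0.29 to 0.28 in MC and -0.21 to 0.75 in HC. Among single log2 ratios in MC, *Gcg* to insulin ranged from -0.31 to 0.29, *Sst* to insulin from -0.29 to 0.055 and *Ppy* to insulin from -0.20 to 0.41. In HC, *Ins1* to *Ins2* ranged from -0.38 to 0.11, *Iapp* to insulin from -0.31 to 0.95, *Gcg* to insulin from -0.22 to 0.94, *Ppy* to insulin from -0.43 to 1.12, *Pyy* to insulin from -0.33 to 0.80, *Ppy* to *Gcg* from -0.20 to 0.19, *Pyy* to *Ppy* from -0.33 to 0.092 and *Chga* to insulin from -0.091 to 1.24. In KMC, *Ppy* to *Gcg* ranged from -0.41 to 0.61. These comparisons hold 2 or 3 libraries a group, and removal of 1 leaves an arm of HC or KMC with a single library, assumed to vary like the others.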
